A study of Mus musculus with 2 samples.

Results

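Enzymes that build seminolipid, ether lipids and polyunsaturated fatty acids were followed through mouse spermatogenesis in 9 genes, Far1, Gnpat, Agps, Ugt8a, Gal3st1, Elovl2, Elovl5, Fads1 and Fads2. They were found by symbol among the 50686 gene rows of the count matrix, which holds 51868 rows in all when repeat sequences are included, and all 9 had at least 1 unique molecular identifier (UMI, 1 tag per captured transcript). The data were single-cell RNA-Seq profiles of whole testis from 2 wildtype C57Bl/6J Crl mice that were 8 weeks of age, littermates, with 1 droplet library per mouse, no treatment and no sorting by marker or stage. The cell suspension was passed through a strainer, which the methods describe as also reducing the number of somatic cells. Only 1 condition was measured, so the comparisons are between germ cell classes, with UMIs summed per mouse.

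Seminolipid is a sulfated galactolipid of spermatocyte and sperm membranes and is built on an ether lipid backbone. The backbone starts in the peroxisome, where Gnpat acylates dihydroxyacetone phosphate and Agps exchanges the acyl chain for a fatty alcohol that Far1 has made from an acyl-CoA. Ugt8a then adds galactose and Gal3st1 adds the sulfate, and loss of either of these enzymes is known to arrest spermatogenesis in mice. Long polyunsaturated fatty acids of testis lipids are made by alternating desaturation and elongation. Fads2 and Fads1 desaturate, Elovl5 elongates the shorter chains and Elovl2 the longer ones.

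Among spermatocytes and spermatids, Far1 and Elovl2 were highest in the pachytene or later class and fell through the spermatid stages. Elovl5 was near the detection limit in the early and pachytene or later spermatocyte classes and highest in round spermatid-like cells. Because Far1 and Elovl2 moved together and Elovl5 moved differently, the 250 bases before their annotated starts are shown (RefSeq, GRCm38.p6; 8 of the 9 genes had an entry). The Far1 window is chr7:113513584-113513833 on the plus strand, the Elovl2 window is chr13:41220404-41220653 on the minus strand, and the Elovl5 window is chr9:77917115-77917364 on the plus strand. Each is printed 5′ to 3′ along the gene, and capitals mark matches on either strand to one of 8 searched motifs.
Far1: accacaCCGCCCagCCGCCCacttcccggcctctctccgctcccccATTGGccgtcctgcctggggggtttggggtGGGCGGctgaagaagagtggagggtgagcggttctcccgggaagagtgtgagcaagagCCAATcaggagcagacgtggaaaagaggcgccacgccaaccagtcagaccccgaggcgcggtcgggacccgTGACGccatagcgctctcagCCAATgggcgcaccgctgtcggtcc
Elovl2: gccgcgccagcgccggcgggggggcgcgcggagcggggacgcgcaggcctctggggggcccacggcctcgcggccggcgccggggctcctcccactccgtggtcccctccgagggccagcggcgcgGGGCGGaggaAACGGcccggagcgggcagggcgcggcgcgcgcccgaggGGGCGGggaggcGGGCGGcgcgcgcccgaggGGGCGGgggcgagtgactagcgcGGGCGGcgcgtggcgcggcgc
Elovl5: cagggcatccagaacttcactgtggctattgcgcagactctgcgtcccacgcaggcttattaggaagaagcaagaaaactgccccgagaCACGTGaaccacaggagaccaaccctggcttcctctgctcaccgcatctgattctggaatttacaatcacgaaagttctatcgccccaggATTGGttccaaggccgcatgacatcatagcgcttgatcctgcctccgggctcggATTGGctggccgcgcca

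The Far1 window held 3 CCAAT boxes (CCAAT, or ATTGG on the other strand), 3 GC boxes (GGGCGG or CCGCCC) and 1 partial cAMP response element (TGACG). In the Elovl2 window 5 GC boxes and 1 MYB core (CCGTT, read here as AACGG) were found, and its GC content was 87.2%. The Elovl5 window held 2 CCAAT boxes and 1 E-box (CACGTG), with a GC content of 55.6%, while Far1 stood at 67.6%. The median GC content over all windows of this length was 52.4%, so all 3 windows lay above it. None of the 3 windows held a match to TATAAA, to the partial RFX site GTTGCC or to the sterol response element TCACNCCAC. Among 32851 windows of the same length, 33.8% held CCAAT, 32.7% GGGCGG, 17.8% TGACG, 14.5% CCGTT, 12.4% TATAAA, 10.4% GTTGCC, 6.02% CACGTG and 1.05% TCACNCCAC. These matches describe the letters of the windows only.

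Cells were clustered without the 9 genes and 51 related lipid genes, and clusters were named from marker lists. Named classes were early spermatocyte-like (164 cells, 11 of 14 markers at least 1.5 times the level of all cells), pachytene or later spermatocyte-like (526 cells, 8 of 14), round spermatid-like (449 cells, 10 of 14) and elongating or condensing spermatid-like (705 cells in clusters of 509 and 196). A cluster of 690 cells led by Ssxb1, between the pachytene and round classes, reached only 1 of 14 round spermatid markers and was left without a name. Ssxb1 is itself on the round spermatid list. By mean standardised marker level, that list came first in this cluster (0.444) and the pachytene or later list second (0.362). This cluster also passed 2 of 14 pachytene or later markers. Together with it, these classes comprise 2534 ordered germ cells. Within the elongating or condensing class, the cluster of 509 cells passed 14 of 14 markers of that class and 0 of 14 round spermatid markers. The cluster of 196 cells passed 13 of 14 and also 9 of 14 round spermatid markers. This class is thus mixed, and fold changes into it cover both clusters. The somatic and premeiotic classes were small, with 7 Sertoli-like, 6 spermatogonium-like and 5 Leydig-like cells, and no cluster was named immune, peritubular or endothelial. The libraries held 27450497 and 30302332 UMIs over 1237 and 1315 cells, with medians of 17871 and 19184 UMIs per cell. Levels are given as CPM, the share of a gene among the UMIs of the class scaled to counts per 1e+06, and intervals on them are exact 95% Poisson intervals that cover counting error only.

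Far1, the fatty acyl-CoA reductase, received 2183 UMIs. Its level was 37.6 CPM in mouse 1 and 30.1 CPM in mouse 2 for early spermatocyte-like cells, and it reached 58.7 and 58.9 CPM among pachytene or later ones. It then stood at 45.5 and 48.6 CPM in the Ssxb1-led cluster, at 26.9 and 23.3 CPM in round spermatid-like cells and at 6.06 and 7.41 CPM in the elongating or condensing class. Both mice gave the same order of classes, and the values of no class overlapped those of its neighbour. The counting intervals of mouse 2 did overlap between pachytene or later cells (53.51 to 64.67 CPM) and the Ssxb1-led cluster (43.99 to 53.58 CPM). Within the last class, the cluster of 196 cells led by Hemgn still had 12.57 and 12.02 CPM, against 2.26 and 3.21 CPM in the cluster of 509 cells led by Prm1. Per cell, the pachytene class carried 1.993 and 2.005 Far1 UMIs in the 2 mice and the round class 0.611 and 0.544.

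**Figure D1:**
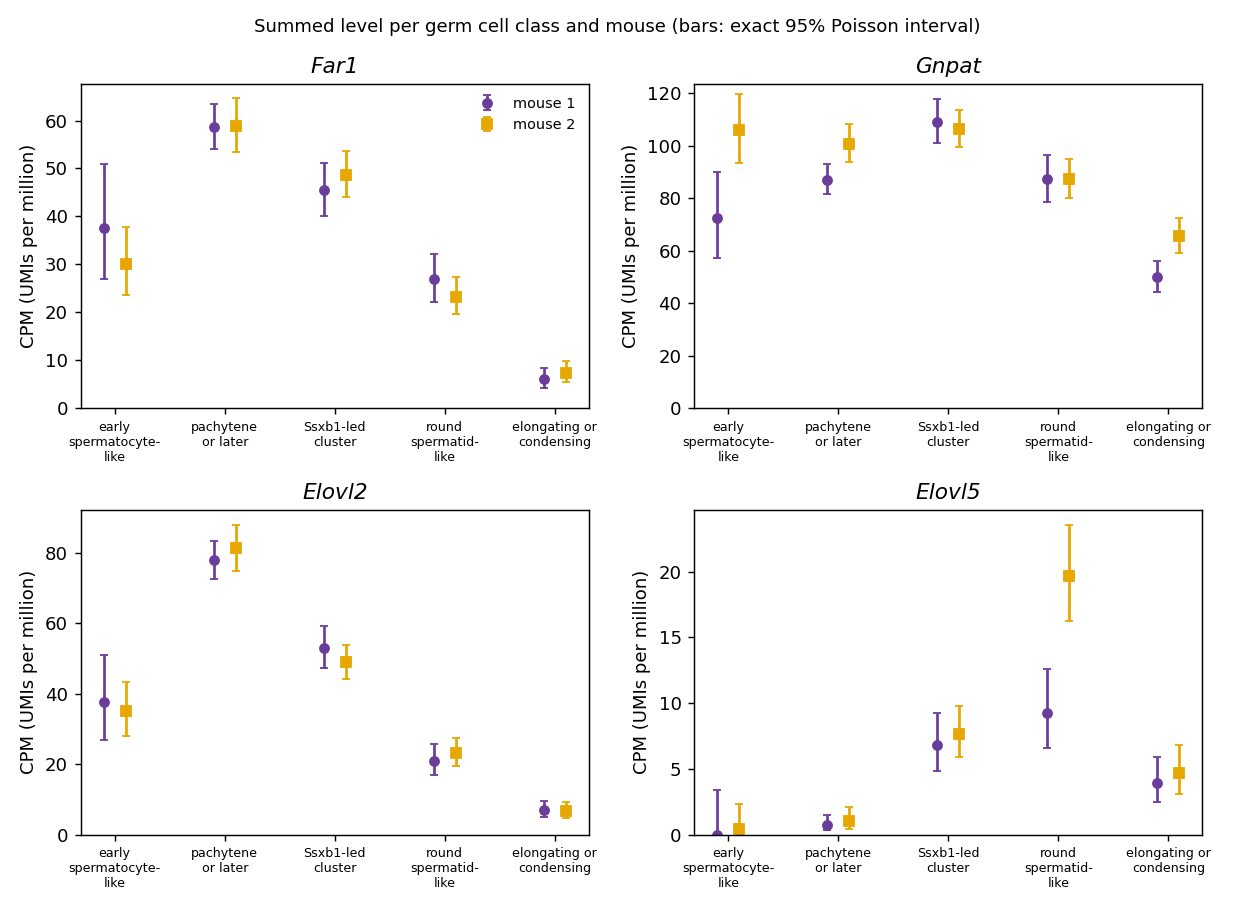
Level in CPM (y axis, from 0) of Far1, Gnpat, Elovl2 and Elovl5 in 5 germ cell classes (x axis); circles are mouse 1, squares mouse 2, and bars are exact 95% Poisson intervals of each mouse. Far1 and Elovl2 are highest in pachytene or later cells in both mice, Gnpat stays between 50.1 and 109 CPM, and Elovl5 reaches 9.26 and 19.6 CPM in round spermatid-like cells.

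Elovl2, the elongase of long polyunsaturated chains, followed a similar course with 2587 UMIs. It rose from 37.6 and 35.1 CPM in early spermatocyte-like cells to 77.9 and 81.3 CPM in pachytene or later cells, and the class sums were then 53.1 and 49.0 CPM in the Ssxb1-led cluster, 21.1 and 23.3 CPM in round spermatid-like cells and 6.95 and 6.73 CPM in the last class. The mice differed less than any pair of neighbouring classes. Along a diffusion pseudotime ordering of the germ cells in 12 bins of equal cell number, both Far1 and Elovl2 peaked in bin 3, in which 99.5% of the cells were pachytene or later. Bins 1 and 2 mixed early and pachytene cells, with 58.5% and 64.5% of the latter. The peak was 64.0 and 64.4 CPM for Far1 and 79.2 and 81.3 CPM for Elovl2, and the lowest bin by the mean of the mice was the last one for both, at 2.45 and 3.51 CPM for Far1 and 3.27 and 1.41 CPM for Elovl2. Over the 24 points (12 bins in each mouse), Pearson's r between the logarithms of both genes was 0.96, a description of points that share libraries, depth and the stage order. Elovl2 was also seen in 5 of the 7 Sertoli-like cells, by 11 UMIs and at 130 CPM (64.8 to 232), but with none in Leydig-like cells, where the limit allowed by 3 counts was 59.2 CPM.

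Gnpat, which starts the ether lipid backbone, was the most evenly spread of the members with over 500 UMIs, at 5109 UMIs. Its level was 72.4 and 106 CPM in early spermatocyte-like cells, 87.1 and 101 CPM in pachytene or later cells, 109 and 106 CPM in the Ssxb1-led cluster, 87.3 and 87.3 CPM in round spermatid-like cells and 50.1 and 65.7 CPM in elongating or condensing cells. Its highest bin was bin 6 over both mice, bin 7 in mouse 1 and bin 5 in mouse 2. This position was not stable, since with 20 bins it was bin 11 over both mice and in mouse 1, but bin 2 in mouse 2. In 3 of the 5 classes the level was higher in mouse 2, by 1.47 times in the early class (95% counting interval 1.14 to 1.91), 1.16 times in the pachytene class (1.05 to 1.28) and 1.31 times in the last class (1.12 to 1.53), which is a difference between single animals. Gnpat overlaps 2 other genes, Gm16163 on the same strand with 724 UMIs and 2810004N23Rik on the opposite strand with 3646 UMIs, and Far1os (1398 UMIs) overlaps Far1 on the opposite strand. The sources used here do not say whether strand was used in counting, although the paper reports reads antisense to exons as a separate mapping class. Strand could not separate Gm16163 from Gnpat in any case. Reads of these pairs may thus have been exchanged.

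Elovl5, the elongase of shorter polyunsaturated chains, showed a later course with 358 UMIs. The early spermatocyte-like cells of mouse 1 had no UMI of it and those of mouse 2 a single one, while the pachytene class had 8 UMIs in each mouse (0.767 and 1.07 CPM). The level then was 6.78 and 7.68 CPM in the Ssxb1-led cluster, 9.26 and 19.6 CPM in round spermatid-like cells and 3.92 and 4.71 CPM in the last class. All Ssxb1-led and round values lay above every value of the early and pachytene or later classes. Within the round class mouse 2 was 2.12 times as high as mouse 1 (1.47 to 3.12), whereas in the Ssxb1-led cluster the ratio was 1.13 (0.751 to 1.73). The highest bin was bin 9 in mouse 1 and bin 8 in mouse 2. Elovl5 was higher still in the somatic-like cells, with 142 CPM (73.1 to 247) in Sertoli-like and 276 CPM (151 to 463) in Leydig-like cells.

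**Figure D2:**
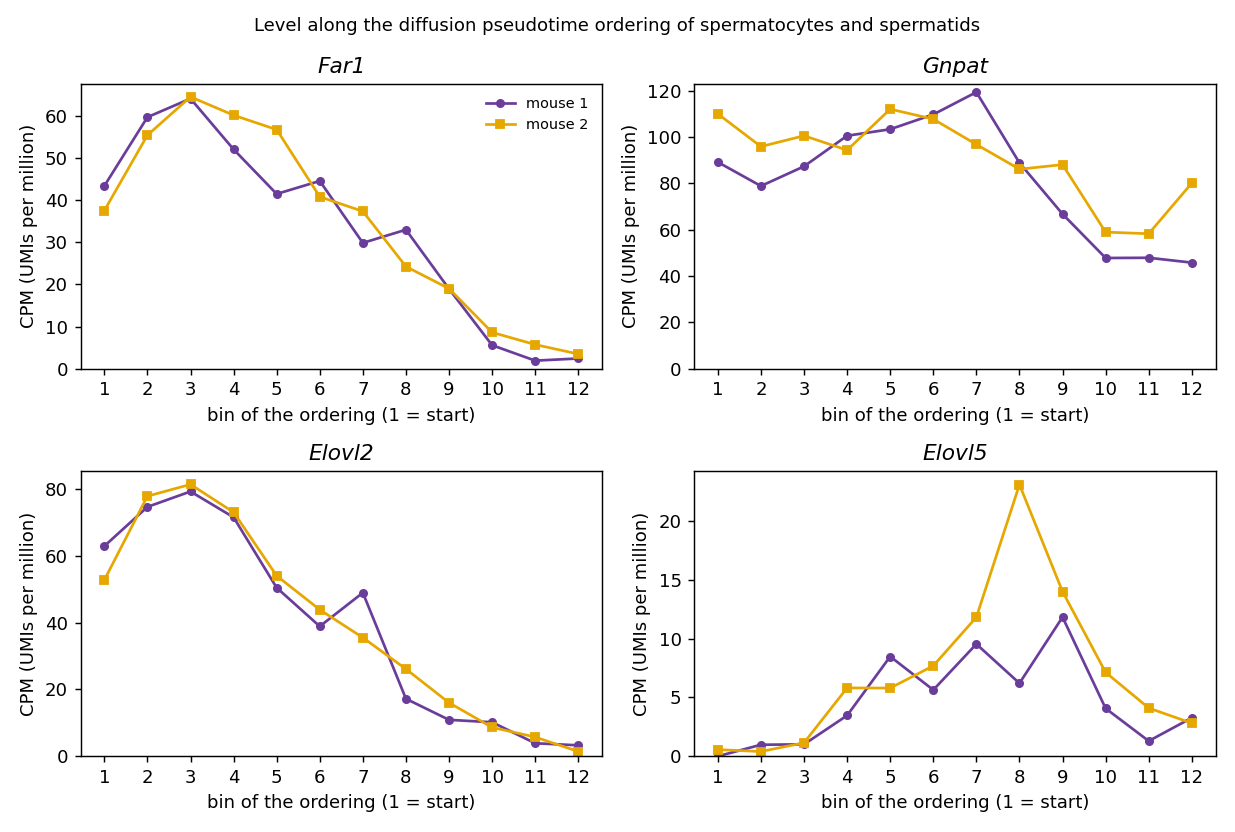
Level in CPM (y axis, from 0) along 12 bins of the diffusion pseudotime ordering of 2534 germ cells (x axis) for Far1, Gnpat, Elovl2 and Elovl5, with circles for mouse 1 and squares for mouse 2. Far1 and Elovl2 peak in bin 3, Gnpat has its highest mean in bin 6, and Elovl5 is below 2 CPM in the first 3 bins and highest in bins 9 and 8 of the 2 mice.

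To ask which steps exceed the spread between mice, UMI sums of the 5 germ cell classes in both mice were compared with edgeR's quasi-likelihood test, with Benjamini-Hochberg adjustment over 15004 rows and a threshold of 0.05. Of the 9 genes, Far1, Gnpat, Ugt8a, Elovl2 and Elovl5 passed the filter on low counts, while Agps, Gal3st1, Fads1 and Fads2 did not. All 5 differed between germ cell classes in the F test, as did 95.5% of all rows tested. Fold changes are relative to TMM scaling factors, which ran from 0.527 in the last class of mouse 1 to 1.55 in the early class of mouse 1, so they are not ratios of the CPM above. Without these factors, the median of all rows moved by -0.25 for pachytene or later against early spermatocyte-like, -0.31 for round against pachytene and -0.85 for elongating or condensing against round, on the log2 scale. With the relative log expression (RLE) factors these medians moved by -0.20, 0.23 and 0.10.

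From early to pachytene or later cells, 2 of the 5 tested genes rose (25.0% of all rows did) and 1 fell (23.3% of all rows). Far1 rose by a log2 fold change of 1.12 ± 0.18 (SE; adjusted p = 2.5e-05) and Elovl2 by 1.42 ± 0.16 (adjusted p = 4.8e-07), in the same direction in both mice. For Gnpat, the log2 fold change was 0.31 ± 0.18 and did not pass (adjusted p = 0.176), but it was called with the mouse as a block (adjusted p = 0.0460). The gene called lower was Ugt8a (adjusted p = 0.0018), on 7 UMIs in early and 1 UMI in pachytene or later cells, and it was not called without doublets or after thinning every cell to 5000 UMIs. Ugt8a was at 1.83 and 2.06 CPM in the early class and at most 0.330 CPM in the other sums. It thus passed the filter on low counts only through the early class. Neither this call nor its F test call is independent of that filter. Of all rows called here, 51.7% were higher, and this share was 41.0% with RLE factors, 40.7% with DESeq2 and 38.6% with library totals only.

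From pachytene or later to round spermatid-like cells, Far1 fell by 0.92 ± 0.16 on the log2 scale (adjusted p = 2.6e-05) and Elovl2 fell by 1.52 ± 0.15 (adjusted p = 1.4e-08), among 37.4% of all rows that were lower. Elovl5 rose by 4.32 ± 0.39 (adjusted p = 3.1e-09), as did 36.9% of all rows in that direction. For each mouse alone, the Elovl5 log2 ratio was 3.88 in mouse 1 and 4.54 in mouse 2. The Ssxb1-led cluster divides this step. Against pachytene or later cells, it had lower Elovl2 (log2 fold change -0.57 ± 0.14, adjusted p = 0.0014; 29.2% of all rows were lower) and higher Elovl5 (3.05 ± 0.41, adjusted p = 2.3e-06; 31.6% were higher), while Far1 at -0.25 ± 0.15 did not pass (adjusted p = 0.152). Gnpat, at 0.27 ± 0.17 in this comparison, was called only with the block (adjusted p = 0.0262) and with RLE factors (adjusted p = 0.0412). Round spermatid-like cells in turn had lower Far1 than this cluster (-0.67 ± 0.16, adjusted p = 0.0017) and lower Elovl2 (-0.95 ± 0.15, adjusted p = 3.1e-05), where 19.5% of all rows were lower. Elovl5 was higher (1.26 ± 0.29, adjusted p = 0.0014), where 24.7% were higher, with log2 ratios of 0.70 in mouse 1 and 1.58 in mouse 2. The share of higher calls in that last comparison was 55.9%, and 40.4% with library totals only.

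From round to elongating or condensing spermatid-like cells, 3 of the 5 tested genes fell, against 26.0% of all rows. Far1 fell by 1.03 ± 0.20 (adjusted p = 1.8e-04), Elovl2 fell by 0.84 ± 0.19 (adjusted p = 8.3e-04) and Elovl5 fell by 0.91 ± 0.33 (adjusted p = 0.0248), on the log2 scale. The Elovl5 change was -0.38 in mouse 1 alone and -1.20 in mouse 2 alone, and it was not called by DESeq2 (adjusted p = 0.168) or with RLE factors (adjusted p = 0.0572). None of the 5 was called higher by edgeR with all UMIs, at the unadjusted threshold either, or by DESeq2, against 26.9% of all rows by edgeR. Gnpat stood at 0.27 ± 0.18 (adjusted p = 0.218), but at -0.59 with library totals only (adjusted p = 0.0046) and at 0.61 after thinning every cell to 5000 UMIs, where it was called higher (adjusted p = 0.0089). The share of higher calls over all rows was 50.8% and dropped to 22.5% with library totals only. Prm1, the protamine that marks condensing cells, stood at 58787 CPM in this class.

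**Figure D3:**
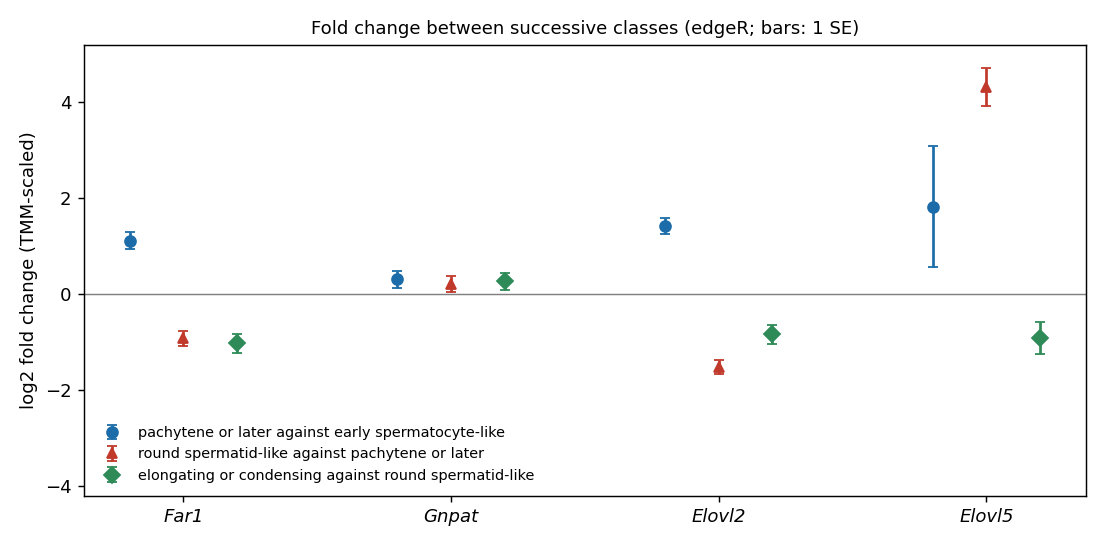
Log2 fold change after TMM scaling (y axis) of Far1, Gnpat, Elovl2 and Elovl5 (x axis) for the 3 steps between named classes, marked by symbol and colour as in the legend. Bars are 1 SE, derived from the log2 fold change and the F statistic of the edgeR fit of 2 mice per class. Far1 and Elovl2 lie above 0 in the first step and below 0 in the other 2, Elovl5 is at 4.32 in the second step, and the Gnpat points lie between 0.21 and 0.31.

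Agps, Ugt8a and Gal3st1, the enzymes that form the ether bond, add galactose and add sulfate, were close to the limit of detection. Agps received 15 UMIs, of which 9 (60.0%, exact 95% binomial interval 32.3 to 83.7%) were in early spermatocyte-like cells, a class that holds 6.08% of all UMIs. These were 1 UMI in mouse 1 and 8 in mouse 2, so the share rests mostly on mouse 2, and a further 2 were in spermatogonium-like cells. For Ugt8a, 7 of 17 UMIs (41.2%, 18.4 to 67.1%) were in the early class, 2 in mouse 1 and 5 in mouse 2. Gal3st1 had 7 UMIs, 5 in mouse 1 and 2 in mouse 2, of which 2 were in the early class. Ugt8a and Gal3st1 each also had 1 UMI in spermatogonium-like cells (15.3 CPM) and 1 in Sertoli-like cells (11.8 CPM). In the early class they were at 1.99 and 0.569 CPM. Agps was at 30.6 CPM (3.71 to 111) in spermatogonium-like cells, but on 2 UMIs in 1 cell of mouse 2. In the early class it was at 2.56 CPM (1.17 to 4.86). These counting intervals overlap, so the order of the classes is not settled. No Agps or Gal3st1 UMI was found in round spermatid-like cells, where the 95% Poisson interval reached up to 0.355 CPM. None was found in elongating or condensing cells either, where that interval reached up to 0.319 CPM. Agps and Gal3st1 did not pass the filter on low counts, so the main fit did not test their differences between classes.

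Fads1 and Fads2, the desaturases, had higher levels in the few Leydig-like and Sertoli-like cells than in germ cells. Fads1 had 19 of its 53 UMIs in the 5 Leydig-like cells, at 500 CPM in the 1 cell of mouse 1 and 344 CPM in the 4 cells of mouse 2, and 375 CPM over both (226 to 585). In Sertoli-like cells it had 3 UMIs, all in mouse 1, or 35.4 CPM over both mice (7.30 to 103). The ordered germ cells had 31 Fads1 UMIs, or 0.539 CPM (0.366 to 0.765). Fads2 had 14 of 26 UMIs in Leydig-like cells, at 200 and 295 CPM in the 2 mice and 276 CPM over both (151 to 463). It had 4 in Sertoli-like cells, or 47.2 CPM over both mice (12.9 to 121). Germ cells had 8, or 0.139 CPM (0.0600 to 0.274). All 5 Leydig-like cells carried a UMI of each desaturase at median depths of 9991 and 9652.5 UMIs, whereas 1.06% and 1.38% of germ cells carried one of Fads1 at median depths of 17894 and 19211.5 UMIs. With 1 Leydig-like cell in mouse 1 and 1 Sertoli-like cell in mouse 2, no test was run on these classes.

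The germ cell values of the desaturases were set beside 2 genes picked from the 9 Leydig markers used to name clusters. Insl3, a hormone gene of Leydig cells, was at 9603 CPM in Leydig-like cells and at 11.6 CPM in germ cells (17.3 in mouse 1 and 6.49 in mouse 2), or 0.121% of the Leydig-like level. By class, Insl3 lay between 0.101% and 0.152% of that level. Cyp17a1, another Leydig cell gene, lay between 0.0487% and 0.128% of its own Leydig-like level. Summed, all 9 markers stood at 26023 and 21757 CPM in Leydig-like cells of mouse 1 and mouse 2. The sums were 170 and 149 CPM in germ cells, and 300 and 311 CPM in early spermatocyte-like cells. Insl3 and Cyp17a1 made up little of these germ cell sums, so their shares do not stand for the whole list. Fads2 lay between 0 and 0.0941%, below the shares of Insl3 but overlapping the range of Cyp17a1. Class by class, the Fads2 share was below that of Cyp17a1. These Fads2 shares are point values on 0 to 3 UMIs per class. In elongating or condensing cells the Fads2 interval ran from 0.0535 to 0.759 CPM. In early spermatocyte-like cells, 0 UMIs allowed up to 1.05 CPM. The order within a class is thus not settled by such counts. Fads1 stood at 1.71 CPM in early spermatocyte-like cells (0.456% of its Leydig-like level), 0.783 CPM in pachytene or later cells (0.209%) and 0.193 CPM in round spermatid-like cells (0.0514%), on 6, 14 and 2 UMIs. Its share was 0.113% in the Ssxb1-led cluster and 0.0693% in elongating or condensing cells, on 6 and 3 UMIs. Elovl5 in round spermatid-like cells was at 5.55% of its Leydig-like level, above the share of Insl3. Prm1 was present at 1286 to 2543 CPM in every class before elongation, somatic-like classes included.

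**Figure D4:**
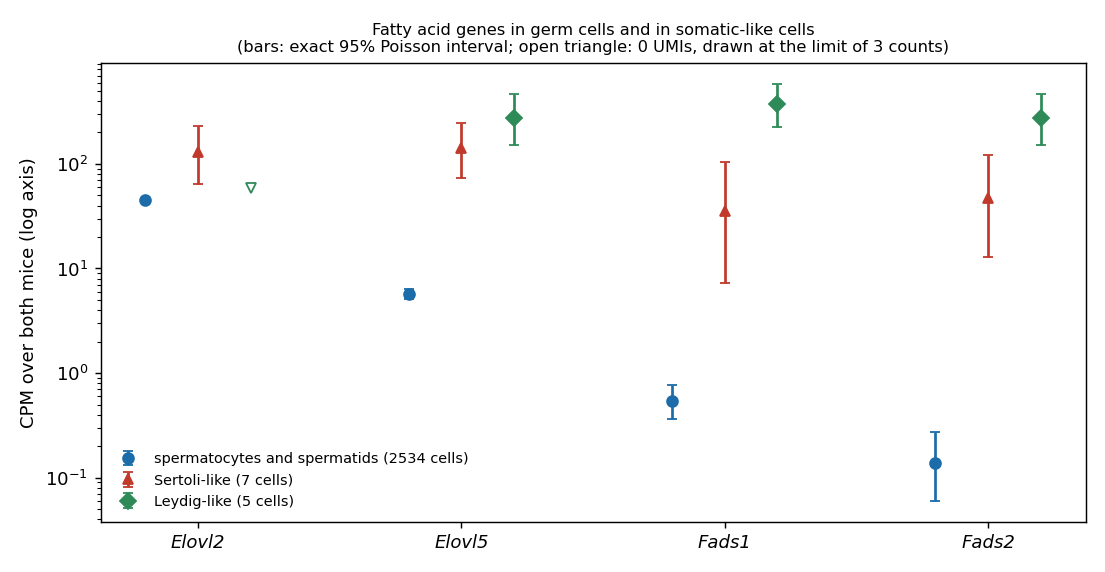
CPM over both mice (y axis, log scale) of Elovl2, Elovl5, Fads1 and Fads2 (x axis) in 2534 spermatocytes and spermatids (circles), 7 Sertoli-like cells (triangles) and 5 Leydig-like cells (diamonds); bars are exact 95% Poisson intervals and the open triangle is the limit of 59.2 CPM for 0 Elovl2 UMIs. Fads1 and Fads2 are at 375 and 276 CPM in Leydig-like cells against 0.539 and 0.139 CPM in germ cells.

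The 9 genes lie on 8 chromosomes (GRCm38, GENCODE gene bounds). Far1 is at chr7:113513834-113571511, Gnpat at chr8:124863033-124890057 and Agps at chr2:75832177-75931350. Ugt8a lies at chr3:125865271-125938619, Gal3st1 at chr11:3983636-3999326, Elovl2 at chr13:41182381-41220405 and Elovl5 at chr9:77917364-77984519. Only Fads1, at chr19:10182888-10196877 on the plus strand, and Fads2, at chr19:10062765-10101746 on the minus strand, share a chromosome. Their starts face away from each other across 81141 bases.

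Likeness of course over the 24 points was ranked among 6155 rows with at least 1000 UMIs, for the members with at least 500. Closest to Far1 were Tpp2 (Pearson's r 0.990), Pdcd2l (0.987) and Mkrn1 (0.987). Closest to Elovl2 were Rfc1 (0.990), Cope (0.989) and Mplkip (0.988). The Gnpat course had weaker neighbours, Ccdc158 (0.918), 1700037H04Rik (0.906) and Ubfd1 (0.904). These values are a description and carry no test.

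Other genes of the same pathways were followed as lists. Their counts are read beside the shares of all rows called. These were 25.0% higher and 23.3% lower from early to pachytene or later cells and 36.9% and 37.4% to the round class. To the last class they were 26.9% and 26.0%. The list counts include calls on few UMIs in the germ cell classes, such as Cept1 (33), Slc35b2 (35), Fads6 (37) and Sumf1 (58). Genes this sparse may have passed the filter on low counts only through the class where they were high. Their calls are not independent of that filter. Of 12 further ether lipid genes, 10 were tested, and 3 rose and 4 fell from early to pachytene or later cells (median log2 fold change 0.04), 2 rose and 3 fell to the round class (-0.47), and 3 rose and 1 fell to the last class (0.28). The medians over all rows in these 3 steps were 0.01, -0.11 and -0.03. Over the alternatives, 1 to 3 of these genes were higher and 2 to 5 lower in the second step, and 2 to 3 higher and 1 to 5 lower in the third. Pex7, the receptor that imports Agps into peroxisomes, fell in the first step by 4.65 ± 0.28 on the log2 scale (adjusted p = 1.3e-10), from 79.7 and 53.7 CPM in the early class to 2.01 and 2.15 CPM. Tmem189, which introduces the vinyl ether bond of plasmalogens, rose by 1.66 ± 0.36 (adjusted p = 6.8e-04), from 7.33 and 4.54 to 15.1 and 13.6 CPM. Pcyt2, of the CDP-ethanolamine route, fell by 3.14 ± 0.19 to the round class (adjusted p = 5.1e-12).

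Among germ cells, both lysoplasmalogenase genes were highest in spermatids. Tmem86b, with 3 and 1 UMIs in the pachytene class, reached 27.3 and 26.6 CPM in round spermatid-like cells (adjusted p = 3.4e-13). Tmem86a rose from 3.24 and 2.15 CPM in that class to 11.8 and 18.7 CPM in elongating or condensing cells (log2 fold change 3.39 ± 0.34, adjusted p = 4.0e-08), and was not called after thinning.

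Of 11 genes that supply or degrade sulfogalactolipids, 9 were tested, with 2 higher and 3 lower in the first step (median -0.83), 4 and 4 in the second (-0.86) and 4 and 2 in the third (0.38). These counts ranged over the alternatives from 1 to 2 higher and 1 to 5 lower in the first step, 1 to 4 and 1 to 4 in the second and 1 to 4 and 0 to 4 in the third. Arsa, the lysosomal sulfatase that removes the sulfate from seminolipid, rose from 22.9 and 42.9 CPM in the early class to 125 and 118 CPM in pachytene or later cells (2.07 ± 0.22, adjusted p = 1.8e-07). Slc35a2, the Golgi carrier of UDP-galactose, had 0 and 2 UMIs in the early class and 2.78 and 2.95 CPM in the pachytene class (adjusted p = 0.0089), and was not called by DESeq2 or after thinning. Psap, precursor of the saposins that assist sphingolipid breakdown, fell by 1.38 ± 0.31 (adjusted p = 8.5e-04), and stood at 923 and 1064 CPM in Sertoli-like and 601 and 417 CPM in Leydig-like cells. The sulfate donor synthases Papss1 and Papss2 had 22 and 17 UMIs in all cells.

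The fatty acid list of 28 genes had 21 tested, with 5 higher and 4 lower in the first step (median -0.19), 9 and 8 in the second (0.45) and 8 and 6 in the third (0.37). Alternatives gave 3 to 7 higher and 3 to 7 lower in the first step, 6 to 11 and 7 to 9 in the second and 6 to 9 and 6 to 9 in the third. Elovl6, which elongates saturated and monounsaturated chains, had 1 UMI in all pachytene or later cells and 18.5 and 21.0 CPM in round spermatid-like cells (adjusted p = 2.3e-11), and then fell by 2.39 ± 0.34 in the last class (adjusted p = 6.5e-06). Acsbg2, a germ cell acyl-CoA synthetase, rose by 4.39 ± 0.18 from pachytene to round cells (adjusted p = 1.3e-14).

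In that same step Cyb5a, the cytochrome that hands electrons to desaturases, fell by 3.23 ± 0.23 (adjusted p = 7.2e-11) and Acsl3, another acyl-CoA synthetase, fell by 2.98 ± 0.29 (adjusted p = 1.1e-08). From round to elongating or condensing cells, Acsl5 rose by 4.54 ± 0.23 (adjusted p = 1.8e-12) and Agpat3, an acyltransferase that places polyunsaturated chains into phosphatidic acid, rose by 3.43 ± 0.16 (adjusted p = 2.9e-13), from 101 and 117 to 633 and 669 CPM. The peroxisomal enzymes Hsd17b4 (-3.12 ± 0.24, adjusted p = 8.0e-10) and Scp2 (-2.11 ± 0.26, adjusted p = 8.7e-07) fell.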

How the data were processed

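Testes of 2 mice were dissociated by the authors with collagenase, hyaluronidase, dispase and DNase and captured as single cells with a droplet 3′-end chemistry. According to the methods and the submitters' processing notes, reads were demultiplexed with bcl2fastq 2.17.1.14, aligned to a repeat-masked GRCm38 genome with added repeat sequences and counted with Cell Ranger 2.0.0, and reads of the deeper library were downsampled. The deposited matrix holds raw UMI counts per row and cell; it was used without filtering cells. The number at the end of each barcode was taken as the mouse, and 0 barcodes were shared. A barcode table and a table of row names were deposited beside it. Both mice form 1 group, and the animal is the replicate.

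The genes, lists and marker limits were chosen with earlier results of these data known. Counts were scaled to the median, log2-transformed after adding 1, and centred and scaled per row; 10 principal components of 27731 rows were clustered by K-means (K = 9, seed 42), without the 9 genes and 51 related genes. A cluster was named where at least 3 markers reached 1.5 times the CPM of all cells. Doublets (25 called by scrublet) were kept. UMIs summed per class and mouse (10 sums) were tested in 1 edgeR fit (TMM, filterByExpr), two-sided, without the mouse as a block. Each SE was derived as the absolute log2 fold change divided by the square root of the F statistic of its comparison. On data simulated for round against pachytene cells (13913 rows, 200 changed 4-fold), edgeR recovered 174 with 8 false calls and DESeq2 153 with 3. The simulated rows shared 1 fixed dispersion, had no other class difference and changed evenly in both directions. These figures are therefore not error rates of the real comparison, in which far more rows were called. Sums with the same number come from the same animal, so they are paired, and their deviations from class means correlated at 0.03 to 0.20. With the mouse as a block, Gnpat was also called higher in pachytene against early cells (adjusted p = 0.0460) and in the Ssxb1-led cluster against pachytene cells (adjusted p = 0.0262). Related genes were named where they had the 3 largest fold changes per direction, list genes pooled, in each of the 3 steps between named classes, past the threshold, in the same direction in both mice and with at least 100 UMIs. A gene that this rule picked is not reported here. Germ cells were ordered by diffusion pseudotime (15 neighbours), and likeness used log2(CPM + 10). GENCODE positions matched 50376 of 50686 identifiers. The authors' own cell type calls were not used here.

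Alternatives were DESeq2, RLE factors, library totals only, no filter on low counts, the mouse as a block, leaving out doublets, K = 10, seed 1, thinning to 5000 UMIs, each mouse alone, another root, 30 neighbours and 20 bins. Versions were R 4.3.3, edgeR 4.0.16, DESeq2 1.42.0, Python 3.11.15, scikit-learn 1.9.0 and scanpy 1.11.5.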

Additional observations from a re-analysis of the deposited data

How the results depend on the processing

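Of 215 pairs of a member's log2 fold change and an alternative with a test, 200 kept direction and side of the threshold, and for Far1 and Elovl2 this was 89 of 90, the exception being Far1 in round against Ssxb1-led cells after thinning (-0.44, adjusted p = 0.207). Not counted here are each mouse alone, counts of calls, and alternatives in which a member was not tested, such as Ugt8a without doublets and after thinning. With library totals only, the Gnpat log2 fold change became -0.10 from pachytene to round and -0.59 from round to elongating or condensing, and Ugt8a became -0.67 in the latter step (-0.016 without the filter on low counts). In round against Ssxb1-led cells Gnpat became 0.057 with DESeq2 and 0.057 with RLE factors. Members called lower in pachytene against early cells numbered 2 without the filter, 0 without doublets and 0 after thinning. Over all rows, 3334 of 27526, 3327 of 14957 and 2172 of 11088 were called lower in these settings. In the main fit it was 3502 of 15004. Members called higher numbered 2 in round against pachytene with DESeq2 and with RLE factors (Gnpat was added, adjusted p = 0.0340 and 0.0190), 2 in Ssxb1-led against pachytene with RLE factors and with the replicate block, and 1 (Gnpat) in elongating against round after thinning. In round against Ssxb1-led cells 1 member was called lower after thinning. The block also called Gnpat higher in pachytene against early cells, and it changed no other call of a member.

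Counts over all rows moved by over 1.5 times with library totals only, to 2176 higher and 7509 lower in elongating against round and 4621 lower in round against Ssxb1-led cells. After thinning, which left fewer UMIs and 11088 rows to test, they were 2172 lower in pachytene against early, 3290 lower in round against pachytene, 2953 higher and 2102 lower in Ssxb1-led against pachytene, and 1526 lower in round against Ssxb1-led cells. As log2 ratios of round to pachytene CPM, the mean over mice was -1.23 for Far1, -0.10 for Gnpat and 3.89 for Elovl5. By UMIs per cell these were -1.79, -0.66 and 3.33, and -2.41 for Elovl2. As the mean of the CPM of each cell, Elovl2 was -1.93 and Elovl5 3.46. Where no cause is named, the cause was not tested. Of the 18 calls of related genes picked by the naming rule for the steps between named classes, 17 remained with DESeq2, 16 after thinning and all in the other 7 alternatives. Agps, Gal3st1, Fads1 and Fads2, with 7 to 53 UMIs in all, did not pass the filter on low counts, so the main fit did not test their differences between germ cell classes. The fit without the filter included them. The 2 members it called lower in pachytene against early cells were Ugt8a and a gene of this group, which is not named here.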

Other observations

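The other fatty acid elongases, a family chosen here after its values were seen, were sparse in germ cells. Elovl3 had 0 UMIs in all cells, Elovl7 had 6, Elovl4 had 22 and Elovl1 had 50, of which 6 were in the 5 Leydig-like cells. Elovl2, Elovl5 and Elovl6 were thus the elongases with over 100 UMIs, and their highest ordered germ cell classes were pachytene or later cells for Elovl2 and round spermatid-like cells for Elovl5 and Elovl6.

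The long-chain acyl-CoA synthetases were also chosen after their values were seen, and the order of their highest classes was not tested. Among the ordered germ cell classes, Acsl3 was highest in early spermatocyte-like cells, at 54.1 and 64.4 CPM, but its change to pachytene or later cells did not pass (-0.51 ± 0.23, edgeR adjusted p = 0.0715). Acsl6 was highest in pachytene or later cells, at 82.2 and 75.3 CPM, and fell to the round class by 1.01 ± 0.16 on the log2 scale (edgeR adjusted p = 9.2e-06). Acsl1 rose from 23.5 and 29.0 CPM in pachytene or later cells to 298 and 315 CPM in round and 545 and 639 CPM in elongating or condensing cells (pachytene to round 3.87 ± 0.18, adjusted p = 5.3e-14; round to the last class 1.81 ± 0.16, adjusted p = 4.1e-09). Acsl5 was at 64.0 and 58.1 CPM in the last class. Acsl4, which prefers arachidonic acid, had 23 UMIs in all, 12 of them in Sertoli-like cells of mouse 1.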
